A study of Mus musculus with 5 samples.

Results

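The genes described here are 10 neuronal RNA-binding and splicing regulators, namely Rbfox1, Rbfox2, Celf1, Celf2, Celf4, Celf5, Nova1, Nova2, Elavl4 and Ptbp2. They were taken by their gene name from a table of 26369 Ensembl genes, in which all 10 were found, and all 10 were among the 17202 genes with enough reads to be tested. The table holds read counts of total striatal RNA, depleted of ribosomal RNA, from mice of mixed CBA and C57BL/6 background. There were 3 libraries from wild-type (WT) mice and 2 from R6/1 mice, a Huntington's disease model transgenic for exon 1 of the human disease gene with a CAG expansion, given as 115. The comparison asks which of these regulators differ in level between the striatum of the disease model and that of WT mice. The sources used here state neither age, sex nor litter. They also do not say that each library is a different mouse, and the p-values reflect the spread among the 5 libraries, which may be technical.

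Neurons choose exons differently from other cells, and a small set of RNA-binding proteins directs much of that choice. Rbfox proteins bind the word UGCAUG in introns and promote or repress the neighbouring exon according to its side. Nova proteins, first known as autoimmune antigens of a neurological syndrome, bind clusters of short pyrimidine-CA words, and Celf proteins bind UG-rich sequence in the nucleus and regulate mRNA decay and translation in the cytoplasm. The neuronal Elavl (Hu) proteins bind AU-rich and U-rich elements and stabilise mRNAs of growing neurons. Ptbp2 is the neuronal form of the polypyrimidine tract binding protein, a splicing repressor that takes over from Ptbp1 when neural precursors become neurons. Because the counts are summed over whole genes, they give the level of each regulator and of its target genes, and not the exons that were chosen.

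Library totals were 19630036 to 23046266 counts in WT and 29871306 to 34379064 in R6/1, with all R6/1 totals above all WT totals. Levels are given as CPM, the count scaled to library size, in which 1 count was worth 0.0277 to 0.0527, and the scarcest of the 10 genes still had 410 counts in its lowest library. The medium spiny neuron markers, which define the principal neuron of the striatum, summed to 8498 to 9742 CPM in WT and to 2527 to 2586 CPM in R6/1, with 14 of 15 lower in R6/1 and none at 0. The pan-neuronal markers summed to 6249 to 7395 CPM in WT and 6786 to 7022 CPM in R6/1, and the astrocyte markers to 4762 to 5055 CPM and 3275 to 3423 CPM. Members of both lists went both ways, with 4 pan-neuronal markers higher (Syp 2.15-fold) and 4 lower (Snap25 1.34-fold), and with Gfap higher 1.64-fold while 4 astrocyte markers were lower, among them Slc1a2, which made up most of that sum. The 10 choroid plexus markers summed to 3786 and 3692 CPM in WT replicates 1 and 2 but to 101 CPM in WT replicate 3, and to 49.7 to 131 CPM in R6/1. Mouse Htt did not pass (adjusted p = 0.481), and its counts do not measure the human transgene. In bulk RNA, fewer cells of a type and less RNA per cell cannot be told apart.

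Rbfox1 was the regulator that differed most. Of the 10 genes, 3 fell in R6/1 (Rbfox1, Celf1 and Celf2), 1 rose (Nova1) and 6 did not pass an edgeR adjusted p of 0.05, computed over all tested genes. Over all tested genes, 22.6% were called, 12.8% as lower and 9.72% as higher, so the 4 calls among 10 are to be read against a table in which calls were common. The median log2 fold change (R6/1 over WT) of the 10 genes was -0.04, against -0.0079 for all tested genes. The groups did not overlap for 5 of the 10 genes, with R6/1 below in 3 and above in 2. Over all tested genes 54.1% did not overlap, 26.9% with R6/1 below and 27.2% with R6/1 above, so this share is near the background.

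**Figure D1:**
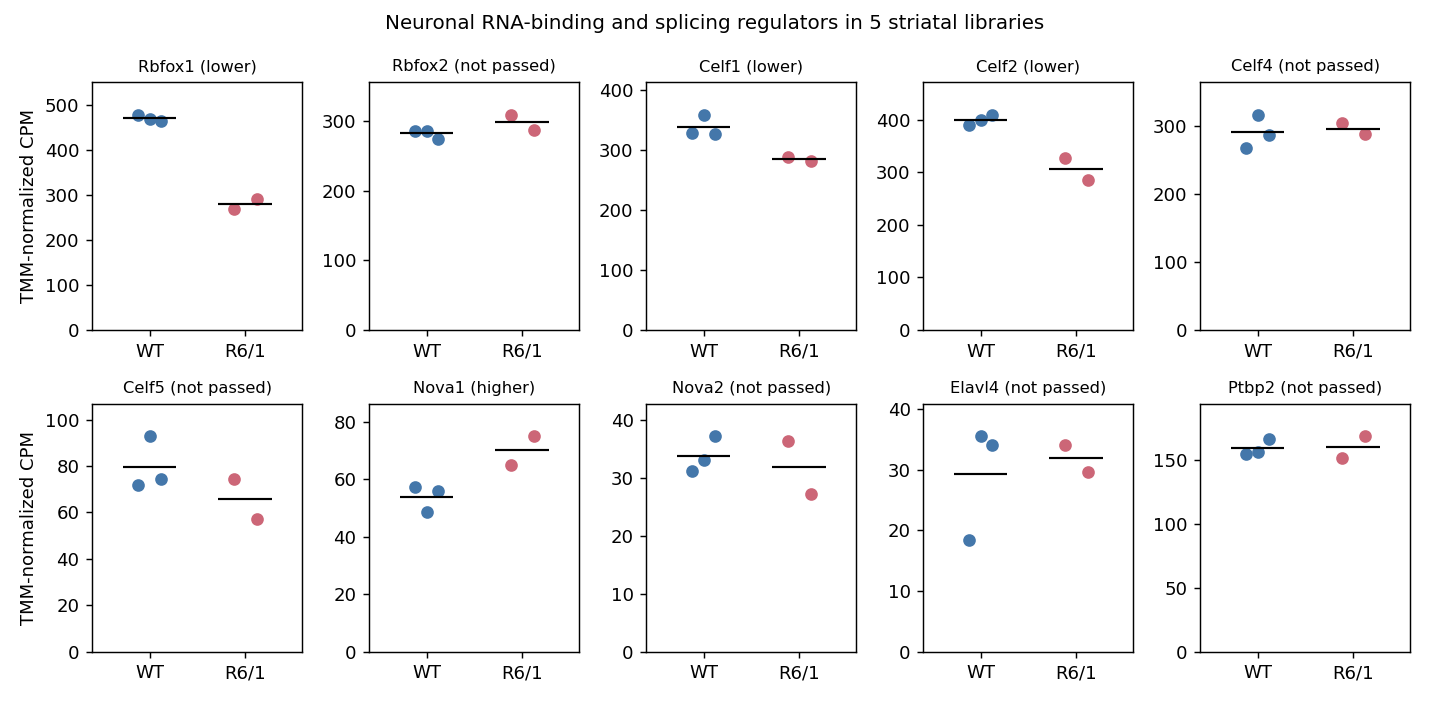
TMM-normalized CPM of each of the 10 regulators on a linear axis from 0, with 1 point per library (3 WT, 2 R6/1) and the group mean as a line. Rbfox1 shows the widest gap between the groups, from at least 463 CPM in WT to at most 291 CPM in R6/1, while Ptbp2 and Celf4 overlap.

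Promoter windows of the called members Rbfox1, Celf1 and Nova1 are shown here. Whether promoter make-up bears on the changes in level was not tested. The sequences run 5′ to 3′ on the gene's own strand over 300 bases that end just past an annotated start, and come from RefSeq on build GRCm38.p6, which is not the build named in the submitters' notes (mm9). RefSeq entries were matched by symbol for 8 of the 10 genes. Capitals mark GGGCGG (the GC box) and TATAAA (the TATA box word), searched on both strands, with overlapping matches merged.
Rbfox1, upstream start, chr16:5884543-5884842, plus strand: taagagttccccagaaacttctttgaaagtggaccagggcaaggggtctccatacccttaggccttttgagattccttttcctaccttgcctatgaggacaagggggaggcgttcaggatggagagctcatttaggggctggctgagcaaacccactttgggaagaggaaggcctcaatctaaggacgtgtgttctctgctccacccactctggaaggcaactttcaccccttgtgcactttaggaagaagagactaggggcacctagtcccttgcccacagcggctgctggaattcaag
Rbfox1, downstream start, chr16:7069585-7069884, plus strand: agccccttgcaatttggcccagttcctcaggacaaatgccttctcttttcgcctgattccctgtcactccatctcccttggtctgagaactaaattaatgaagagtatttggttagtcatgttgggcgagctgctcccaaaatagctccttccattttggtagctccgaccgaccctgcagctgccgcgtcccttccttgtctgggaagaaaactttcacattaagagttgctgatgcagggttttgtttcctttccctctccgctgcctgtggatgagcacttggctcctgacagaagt
Celf1, chr2:90940147-90940446, plus strand: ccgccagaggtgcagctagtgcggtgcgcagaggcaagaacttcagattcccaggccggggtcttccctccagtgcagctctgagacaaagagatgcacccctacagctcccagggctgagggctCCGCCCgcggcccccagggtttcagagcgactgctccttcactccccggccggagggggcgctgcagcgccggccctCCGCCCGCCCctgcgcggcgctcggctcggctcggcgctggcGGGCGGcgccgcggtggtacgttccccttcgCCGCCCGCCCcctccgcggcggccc
Nova1, chr12:46818718-46819017, minus strand: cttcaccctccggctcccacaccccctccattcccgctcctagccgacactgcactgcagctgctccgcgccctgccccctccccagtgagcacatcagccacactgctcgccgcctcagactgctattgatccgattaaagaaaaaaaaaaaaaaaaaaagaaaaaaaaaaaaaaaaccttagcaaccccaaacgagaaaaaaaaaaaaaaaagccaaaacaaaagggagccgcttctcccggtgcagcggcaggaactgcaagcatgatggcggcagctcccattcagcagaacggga
The Celf1 window held 34 CG dinucleotides and 6 matches of GGGCGG, a word present in 35.7% of 32851 RefSeq promoter windows of the same length. Both Rbfox1 windows lacked it and held 3 and 7 CG dinucleotides, against a median of 7 over all windows, and the Nova1 window lacked it with 14. None of the 4 windows held TATAAA, which 13.6% of all windows did. Celf2 has 5 windows, not printed here, with 4 to 48 CG dinucleotides. Of these 5, 2 held GGGCGG and 1 held TATAAA. Gene counts do not tell which start was used.

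Rbfox1 (ENSMUSG00000008658), a splicing regulator of neuronal excitability genes that also stabilises synaptic mRNAs in the cytoplasm, was at 478, 468 and 463 CPM in WT replicates 1 to 3 and at 268 and 291 CPM in R6/1 replicates 1 and 2. The WT libraries lay close together, and both R6/1 libraries lay far below all of them. The mean fell 1.68-fold, from 470 ± 7.51 CPM (SD, n = 3) to 280 ± 16 CPM (n = 2), with a log2 fold change of -0.75 (SE 0.07, edgeR adjusted p = 0.000713). Rbfox1 passed in all 5 fits that left out 1 library, with adjusted p of 0.000904 to 0.0151. It also passed with the choroid plexus markers as a covariate (log2 fold change -0.75), and its log2 fold change was -0.73 without WT replicates 1 and 2 together. Those markers were high in WT replicates 1 and 2 alone, so these fits are close to the same comparison. Its fall lay within the range of the called medium spiny neuron markers, from 1.31-fold for Foxp1 to 14.7-fold for the sodium channel subunit Scn4b. The neuropeptide genes Tac1 (1.58-fold) and Pdyn (1.6-fold) fell by about as much as Rbfox1, and Ppp1r1b, which encodes DARPP-32, fell 3.64-fold. The median log2 fold change of the medium spiny neuron markers was -1.63, a larger fall than that of Rbfox1. These sizes were not tested against each other, and the part of the medium spiny neuron markers in the Rbfox1 value was not tested.

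Rbfox2 (ENSMUSG00000033565), the broadly expressed relative that binds the same RNA word, did not fall with it. Its level was 286, 286 and 275 CPM in WT and 309 and 287 CPM in R6/1. The R6/1 libraries lay just above the WT range, and the log2 fold change of 0.08 (SE 0.07) did not pass (adjusted p = 0.423). Rbfox3, which encodes the neuronal nuclear antigen NeuN, averaged 77.1 ± 11.2 (WT) and 69.2 ± 5.09 CPM (R6/1; log2 fold change -0.16, SE 0.13, adjusted p = 0.404).

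The balance within the Rbfox family was therefore compared as a ratio of counts inside each library, which does not depend on how libraries are scaled. On counts per kb of gene length, Rbfox1 stood at 2.66, 2.60 and 2.69 times Rbfox2 in the WT libraries and at 1.38 and 1.61 times in the R6/1 libraries. The groups did not overlap, and the mean log2 ratio differed by -0.83 between R6/1 and WT, a 1.77-fold shift. Against Rbfox3, the ratio per kb was 2.67, 2.0 and 2.44 in WT and 1.42 and 1.70 in R6/1, again without overlap, with a log2 difference of -0.60. With 3 libraries against 2, the two-sided exact permutation test cannot go below p = 0.1, the value reached by both pairs (0.233 when adjusted over the 7 pairs compared). This exact test therefore cannot pass a threshold of 0.05 for any of these ratios.

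Celf1 and Celf2, the ubiquitous and more neuronal relatives that shuttle between splicing and mRNA decay, were both lower in R6/1. Celf2 (ENSMUSG00000002107) was at 390, 400 and 410 CPM in WT and 328 and 285 CPM in R6/1. Both R6/1 libraries lay below the WT range but differed from each other by more than the WT libraries did. Its fall was 1.31-fold, from 400 ± 9.68 to 306 ± 30.2 CPM, a log2 change of -0.39 with SE 0.08 (adjusted p = 0.0150). The call held in 4 of the 5 fits that left out 1 library and was lost without R6/1 replicate 2 (log2 fold change -0.29, adjusted p = 0.123). It was lost with the choroid plexus covariate too, at the same log2 fold change of -0.39 (edgeR adjusted p = 0.0732). Without WT replicates 1 and 2 together the log2 fold change was -0.42.

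Celf1 (ENSMUSG00000005506) was at 330, 360 and 328 CPM in WT and 288 and 282 CPM in R6/1. Its R6/1 values were close to each other and below every WT value. The fall of 1.19-fold (log2 fold change -0.25, SE 0.07) passed narrowly at an adjusted p of 0.0414. Of the fits with 1 library left out, only the one without WT replicate 2 kept it (adjusted p = 0.0490), and the others gave 0.0673 without WT replicate 1, 0.0751 without WT replicate 3, 0.167 without R6/1 replicate 1 and 0.217 without R6/1 replicate 2. It did not pass with the choroid plexus covariate (adjusted p = 0.226) or without WT replicates 1 and 2 together (adjusted p = 0.137). The Celf1 to Celf2 ratio per kb was 0.723, 0.770 and 0.685 in WT and 0.753 and 0.847 in R6/1, with overlapping groups (exact permutation p = 0.3).

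Celf4 and Celf5 belong to the branch of the family found mainly in the nervous system, and mice lacking Celf4 have seizures. Celf4 (ENSMUSG00000024268) was at 269, 318 and 288 CPM in WT and 305 and 289 CPM in R6/1, with the R6/1 values inside the WT range (log2 fold change 0.03, SE 0.08, adjusted p = 0.850). Celf5 (ENSMUSG00000034818) was at 71.6, 92.8 and 74.3 CPM in WT and 74.6 and 57.4 CPM in R6/1. R6/1 replicate 2 was the lowest library and WT replicate 2 the highest, and the log2 fold change of -0.27 (SE 0.15) did not pass (adjusted p = 0.234). The Celf5 value was of the size of the Celf1 value with a larger SE (0.15 against 0.07), so the call for one and not for the other does not show that they differ. Celf5 moved from -0.09 without R6/1 replicate 2 to -0.47 without R6/1 replicate 1, passing in neither. Celf4 per kb stood at 1.42, 1.3 and 1.47 times Celf5 in WT and at 1.55 and 1.91 times in R6/1, without overlap, a log2 difference of 0.30 at the smallest exact permutation p of 0.1. The difference was 0.15 without R6/1 replicate 2.

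Among their paralogs, Celf6 rose from 19.1 ± 1.49 to 24.3 ± 0.0787 CPM (log2 fold change 0.35, SE 0.10, adjusted p = 0.0465). Its call was kept without WT replicate 2 (adjusted p = 0.0307) and lost in each other fit with 1 library left out (0.0947 to 0.199). Celf3 was at 55.4 ± 5.70 and 51.1 ± 0.206 CPM (adjusted p = 0.436).

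Nova1 (ENSMUSG00000021047), which controls exons of inhibitory synapse genes and is needed for survival of motor neurons in mice, was the member that rose. It was at 57.1, 48.7 and 55.9 CPM in WT and 65.0 and 74.8 CPM in R6/1, with both R6/1 libraries above the WT range. The rise was 1.3-fold, from 53.9 ± 4.54 to 69.9 ± 6.93 CPM, a log2 change of 0.37 with SE 0.10 (adjusted p = 0.0390). Of the fits with 1 library left out, the one without WT replicate 2 kept this call (adjusted p = 0.0480). The adjusted p was 0.0550 and 0.0776 without WT replicates 1 and 3, and 0.0809 and 0.245 without R6/1 replicates 1 and 2. Nova1 did not pass with the choroid plexus covariate (log2 fold change 0.29, adjusted p = 0.239) or without WT replicates 1 and 2 together (0.32, adjusted p = 0.111).

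Nova2 (ENSMUSG00000030411), its paralog with a wider role in the cortex, was at 31.1, 33.1 and 37.1 CPM in WT and 36.4 and 27.2 CPM in R6/1. The R6/1 libraries lay on either side of the WT mean of 33.8 CPM, and the log2 fold change was -0.09 (SE 0.14, adjusted p = 0.684). Per kb, Nova1 stood at 1.82, 1.46 and 1.5 times Nova2 in WT and at 1.78 and 2.74 times in R6/1. The high ratio came from R6/1 replicate 2, in which Nova1 was high and Nova2 low, and the groups overlapped (log2 difference 0.48, exact permutation p = 0.3). Without R6/1 replicate 2 the difference was 0.16, and without R6/1 replicate 1 it was 0.79.

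Elavl4 (ENSMUSG00000028546), which encodes HuD, an mRNA-stabilising protein of neuronal outgrowth, was the most variable member among WT libraries. It was at 18.4, 35.5 and 34.0 CPM in WT and 34.1 and 29.6 CPM in R6/1. WT replicate 1 lay far below the other 4 libraries, which were close to one another. The log2 fold change was 0.12 (SE 0.26, adjusted p = 0.759) with all libraries and -0.13 without WT replicate 1. Elavl2 followed the same order, with 29.7 CPM in WT replicate 1 and 46.8 to 53.8 CPM in the other libraries, and the Elavl4 to Elavl2 ratio per kb stayed between 0.258 and 0.289 in all 5. The 12 cortical projection neuron markers summed to 217 CPM in WT replicate 1, the lowest sum, and to as much as 451 CPM in WT, against 234 to 289 CPM in R6/1. Their part in the Elavl4 values was not tested.

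Elavl3 (HuC), the third neuronal Elavl gene, did not share that pattern. It was at 122, 136 and 129 CPM in WT and 183 and 167 CPM in R6/1, both above every WT library, and rose 1.36-fold (log2 fold change 0.44, SE 0.08, adjusted p = 0.00985). The call was kept with each WT library left out and without R6/1 replicate 2, and lost without R6/1 replicate 1 (adjusted p = 0.0866). It also missed the threshold with the choroid plexus covariate (0.46, adjusted p = 0.0579). Elavl1 (HuR), expressed in most cells, was at 131 ± 7.47 and 130 ± 0.464 CPM (adjusted p = 0.938).

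Ptbp2 (ENSMUSG00000028134) was at 155, 157 and 166 CPM in WT and 152 and 169 CPM in R6/1. The R6/1 libraries lay on either side of the WT range, and the log2 fold change was 0.01 (SE 0.08, adjusted p = 0.952). Ptbp1, its counterpart in non-neuronal cells and precursors, averaged 26.7 ± 3.29 (WT) and 30.5 ± 0.0066 CPM (R6/1; log2 fold change 0.19, SE 0.11, adjusted p = 0.268). The Ptbp2 to Ptbp1 ratio per kb was 1.37, 1.76 and 1.71 in WT and 1.33 and 1.48 in R6/1, with overlapping groups (exact permutation p = 0.3). Ptbp3, listed under its older symbol Rod1, was at 88.1 ± 1.53 and 88.5 ± 0.605 CPM. Of the 8 paralogs together, 2 rose (Elavl3 and Celf6) and 6 did not pass (median log2 fold change 0.09), a called share of 25% that is near the 22.6% of all tested genes.

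**Figure D2:**
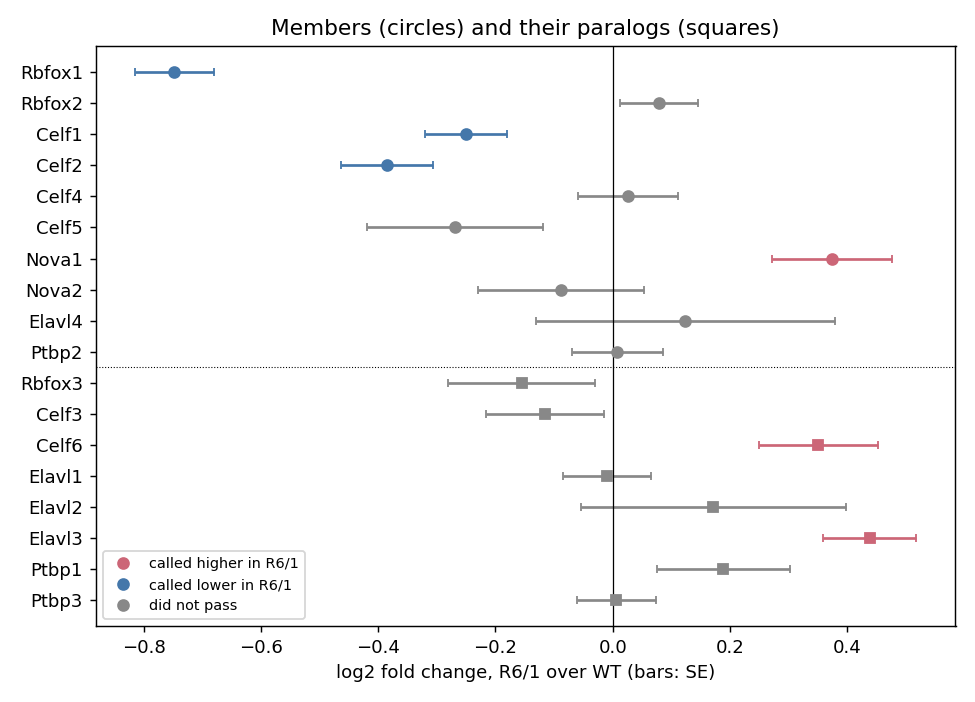
Log2 fold change of R6/1 over WT with its SE for the 10 members (circles, above the dotted line) and their 8 paralogs (squares), coloured by the edgeR call at an adjusted p of 0.05. Rbfox1 lies farthest from 0 at -0.75, and the called rises of Nova1, Celf6 and Elavl3 lie between 0.35 and 0.44.

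**Figure D3:**
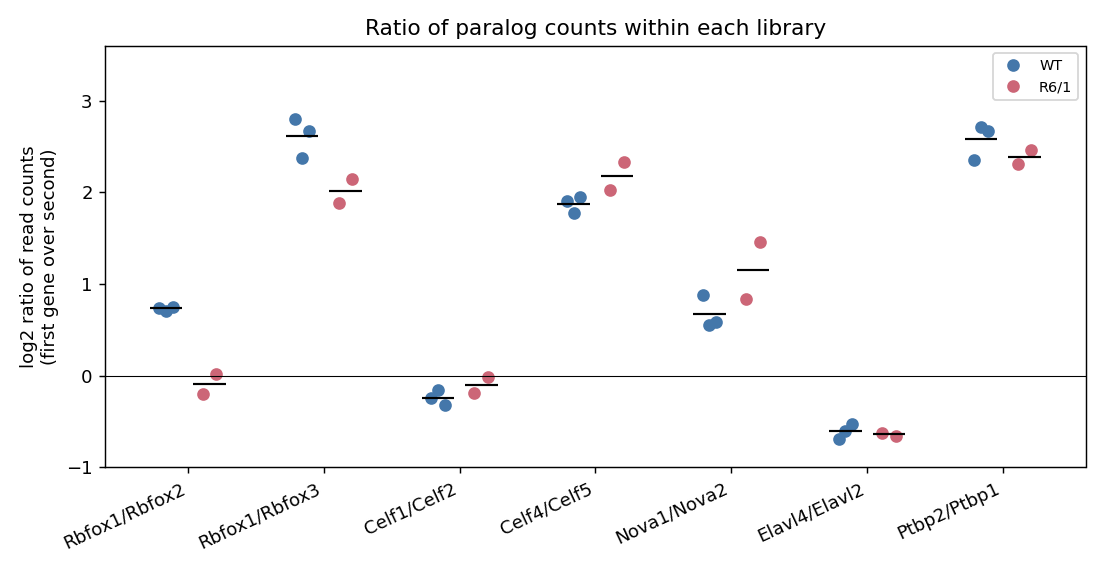
Log2 ratio of read counts of paired paralogs in each library, with 1 point per library and the group mean as a line (3 WT, 2 R6/1). The Rbfox1/Rbfox2 ratio falls from a WT mean of 0.73 to -0.09 in R6/1, and the Elavl4/Elavl2 ratio is nearly the same in all libraries.

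Levels of the 10 regulators were set against each other as the authors' normalized counts per kb of gene length, with the length taken as the table implies it. Celf2 had the highest level in WT, 5045 ± 133, followed by Celf1 at 3661 ± 196, Rbfox1 at 2922 ± 40.0 and Celf4 at 1864 ± 161, and the WT ranges of these neighbours did not overlap. Celf5 (1341 ± 196) and Ptbp2 (1192 ± 48.5) overlapped each other, and Rbfox2 (1103 ± 24.2) lay below both. Elavl4 (196 ± 63.8) and Nova1 (194 ± 16.1) overlapped, and Nova2 (122 ± 11.3) was the lowest. In R6/1, Rbfox1 at 1761 ± 106 stood below Celf4 at 1919 ± 67.2, the reverse of their order in WT. Nova1 at 254 ± 26 stood above Elavl4 at 215 ± 20.5, but these genes had no clear order in WT. In WT replicate 1, Nova1 (205) was already above Elavl4 (122). By its R6/1 mean, Celf5 (1124 ± 204) stood below Ptbp2 (1212 ± 94.4) and Rbfox2 (1178 ± 57.7), with R6/1 libraries at 1268 and 980. These levels rest on the lengths used by the authors, which were 2.0 kb for Celf2 and 7.0 kb for Nova1.

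Among 76 other regulators and splicing factors tested, those closest in pattern to the called members were found from the root mean square difference of centred log2 CPM over the 5 libraries. Nearest to Celf2 were Cpeb2 (0.0592) and Mbnl2 (0.0800), and nearest to Celf1 were Mbnl2 (0.0666) and Qk (0.0750). Rbfox1 had no neighbour as near, with Cpeb2 at 0.162 and Mbnl1 at 0.179. The centred values were not scaled, so this distance largely restates the size of the change. The log2 fold change was -0.75 for Rbfox1 and -0.45 for Cpeb2. For Nova1 the nearest were Snrnp70 (0.0821) and Ptbp1 (0.124).

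Of 30 other neuronal and muscleblind RNA-binding proteins, 28 were tested, 5 fell, 3 rose and 20 did not pass (median log2 fold change 0.06). The called share of 28.6% was near the 22.6% of all tested genes. Mbnl1 and Mbnl2, the muscleblind proteins that bind CUG repeats and oppose Celf1 at many exons, were both called lower. Mbnl1 went from 333 ± 23.4 to 251 ± 7.32 CPM (1.32-fold, adjusted p = 0.0123). Mbnl2 went from 516 ± 20.4 to 398 ± 2.25 CPM (1.3-fold, adjusted p = 0.00868). Neither passed with the choroid plexus covariate (edgeR adjusted p = 0.067 for Mbnl1 and 0.0644 for Mbnl2). Their log2 fold changes were then -0.41 and -0.31. Cpeb2, a regulator of mRNA translation, fell 1.36-fold from 99.0 ± 2.59 to 72.6 ± 3.07 CPM (adjusted p = 0.00647). Tardbp, which encodes TDP-43, rose 1.35-fold from 181 ± 13.6 to 243 ± 25.2 CPM (adjusted p = 0.0189), Fxr1 rose 1.22-fold (adjusted p = 0.0426), and Msi1, a Musashi protein of neural precursors, rose 1.64-fold from 7.61 ± 0.864 CPM (adjusted p = 0.0183). Qk, the gene with the highest CPM of the list and 1 of 2 table rows with that symbol, was at 690 ± 29.7 and 629 ± 11.2 CPM (adjusted p = 0.188). Without R6/1 replicate 1, 1 gene of the list fell and 0 rose by edgeR, and without R6/1 replicate 2, 0 fell and 1 rose.

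General splicing factors were called mostly as higher. Of 31, 9 rose, 1 fell and 21 missed the threshold. Their median log2 fold change was 0.16, and 32.3% were called, against 22.6% of all tested genes (9.72% higher and 12.8% lower). This list too was chosen with earlier results of these data known. Tra2a, a splicing activator, rose 1.74-fold from 58.1 ± 11.9 to 101 ± 2.59 CPM (adjusted p = 0.0114). The serine/arginine-rich factor Srsf4 rose 1.62-fold (adjusted p = 0.0120), and Hnrnpa2b1, an mRNA packaging and transport protein, rose 1.62-fold from 176 ± 28.4 to 285 ± 45.4 CPM (adjusted p = 0.0159). Srsf6, known to bind CAG-expanded HTT exon 1 RNA, rose from 118 ± 5.87 to 155 ± 4.06 CPM (adjusted p = 0.0107), and was picked out knowing its values. Sf3b1, a core component of the U2 particle and the gene with the highest CPM of the list, fell 1.32-fold from 598 ± 55.8 to 454 ± 8.79 CPM (adjusted p = 0.0209). Without R6/1 replicate 1, 0 of these genes rose and 0 fell by edgeR, and without R6/1 replicate 2, 1 rose and 0 fell. Leaving out WT replicate 1 or WT replicate 3 left 5 and 4 rises, and leaving out WT replicate 2 gave 13. With the choroid plexus covariate, 5 rose and 0 fell. The handling of reads with several matches is not stated, so counts of hnRNP genes, which have processed pseudogenes, are uncertain.

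Genes whose transcripts are known targets of these proteins were lower more often than higher. Of 14, 6 fell, 1 rose and 7 did not pass. The called share was 50.0%, against 22.6% of all tested genes (12.8% lower and 9.72% higher). Among the cell type marker lists that share ran from 0.0% (microglia) to 93.3% (medium spiny neuron). It was 53.3% for pan-neuronal and 50.0% for astrocyte markers, so a share of this size is not particular to the targets. The target list was also chosen with earlier results of these data known. Their median log2 fold change was -0.31. Gene counts do not show their exon use. Cacna1c, an L-type calcium channel with Rbfox-regulated exons, fell 1.4-fold from 182 ± 13.1 to 130 ± 6.48 CPM (adjusted p = 0.00844). Dlg4, which encodes PSD-95 and is held back by Ptbp2 early in neuronal development, fell 1.29-fold from 255 ± 10.1 to 198 ± 21.7 CPM (adjusted p = 0.0245). Dab1, a reelin signalling adaptor with Nova-regulated exons, fell 1.28-fold (adjusted p = 0.0423). Gap43, an outgrowth mRNA stabilised by HuD, rose 1.24-fold from 145 ± 12.0 to 180 ± 0.193 CPM (adjusted p = 0.0383). The number of falls was 1 when WT replicate 3 or R6/1 replicate 1 was left out, 0 by edgeR when R6/1 replicate 2 was, and 1 when TMM factors were.

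**Figure D4:**
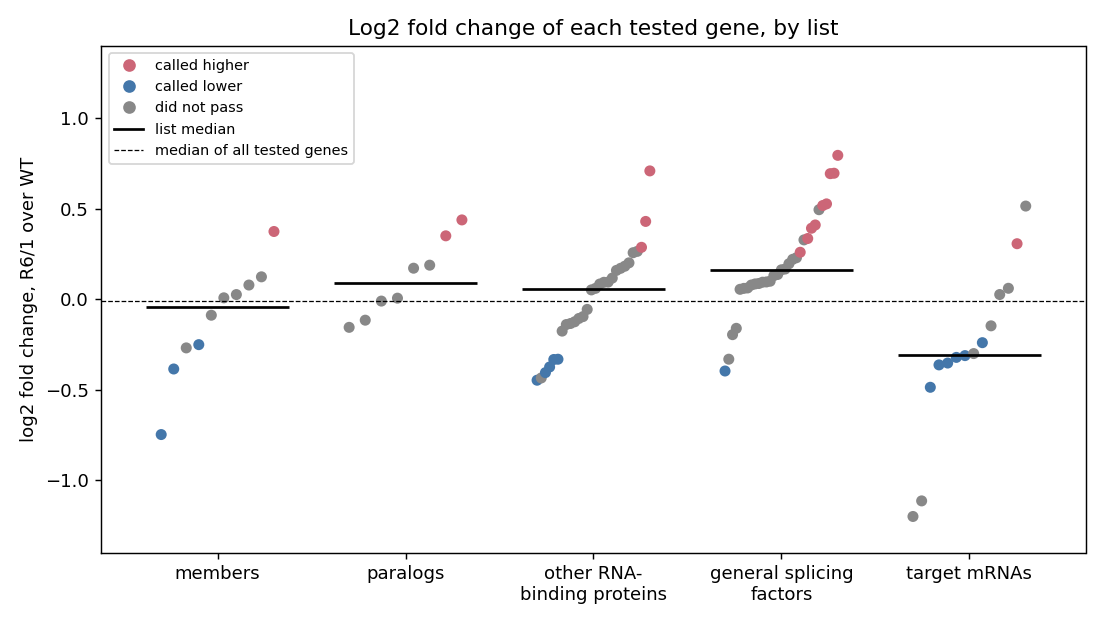
Log2 fold change of R6/1 over WT for each tested gene of 5 lists, coloured by edgeR call, with the list median as a bar and the median of all tested genes as a dashed line. General splicing factors have 9 called rises and 1 called fall, and target mRNAs 1 rise and 6 falls.

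The authors' deposited table gives the same 4 members an adjusted p below 0.05, with log2 fold changes of -0.73 for Rbfox1, -0.37 for Celf2, -0.23 for Celf1 and 0.38 for Nova1. In the authors' deposited table the adjusted p was 3.04e-33 for Rbfox1 and 0.00847 for Nova1. These values rest on the same 5 libraries and are not a separate check. The submitters' notes name DESeq2, so these p-values are not on the footing of those from edgeR.

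**Figure D5:**
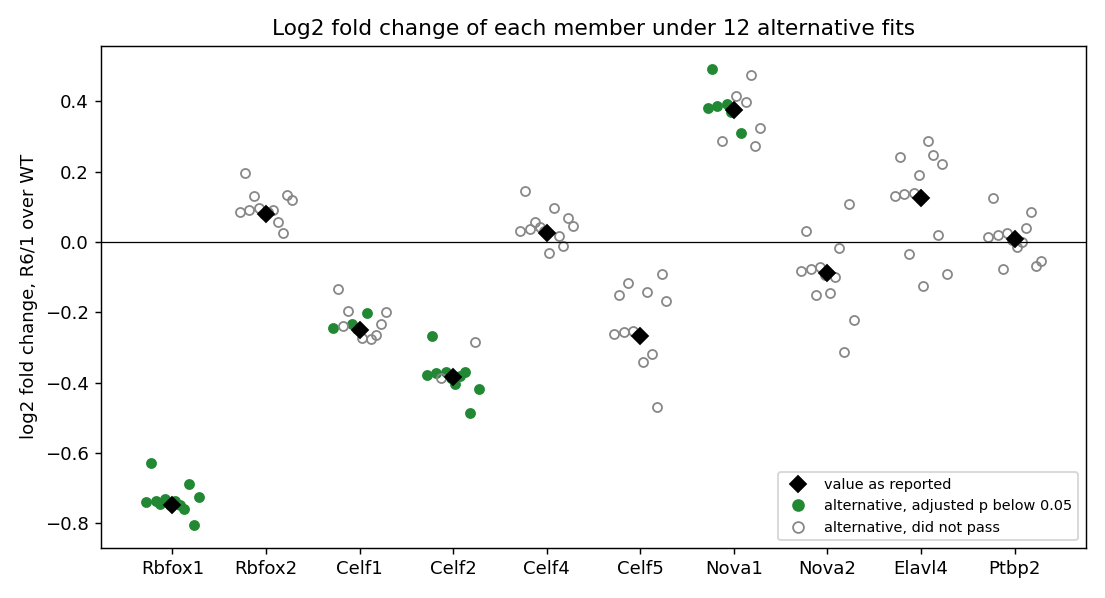
Log2 fold change of each member as reported (diamonds) and under 12 alternative fits (circles, filled where the adjusted p was below 0.05). Rbfox1 is filled in all 12, Celf2 in 10, Nova1 in 6 and Celf1 in 4, and no other member is filled in any.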

How the data were processed

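Total RNA of the striatum was sequenced in 3 WT and 2 R6/1 libraries made, per the labels' protocols, with a stranded kit after removal of ribosomal RNA. The authors deposited raw read counts for each Ensembl gene. Build mm9 and the tools TopHat 1.4.1, HTSeq 0.5.4p3, CASAVA 1.8.2 and DESeq2 1.0.19 are named in the submitters' processing notes. The strand setting of the counting is not given in the sources used here. Per the file headers, the table also has a normalized signal and that signal divided by gene length in kb, along with the authors' log2 fold changes and p-values.

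Genotype differences in the counts came from edgeR 4.0.16 (R 4.3.3, quasi-likelihood fit), with TMM normalization, filterByExpr (minimum count 10, minimum total 15), genotype as the only term and Benjamini-Hochberg adjustment over 17202 genes. A gene was called at an adjusted p below 0.05. CPM are TMM-normalized and printed as mean ± SD (3 WT and 2 R6/1 libraries), and the SE is implied by the F statistic. Every fit with 1 R6/1 library assumes that it varies like the WT libraries. The fit without WT replicates 1 and 2 leaves WT replicate 3 alone in its group. It assumes in the same way that this library varies like the R6/1 libraries. The steps were tested on simulated data. Same-group libraries differed beyond counting error (chi-square per gene 11.4 to 20.8).

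The members and gene lists were chosen with earlier results of these data known. Of 185 list entries, 182 were found by symbol and 3 through a reference table of gene names. All members and paralogs are named. From each further list the text names up to 3 called genes per direction with the largest change and the gene with the highest CPM. Of the genes so chosen, 1 is not reported here.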

Additional observations from a re-analysis of the deposited data

How the results depend on the processing

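The 12 alternatives were other scalings, no filter, DESeq2, limma-voom, a choroid plexus covariate, each library left out, and WT replicates 1 and 2 left out together. The covariate mainly sets WT replicates 1 and 2 apart from the other libraries. It and the fit without both of them are therefore not separate checks. Rbfox1 passed in all 12, and Rbfox2 and Celf5 kept their direction without passing in any. RLE size factors, DESeq2 and limma-voom left each member's call and direction as they were. Removing the TMM factors moved the median log2 fold change of all tested genes from -0.0079 to 0.11, with 3237 genes higher, 14 general splicing factors higher and 0 lower, 1 target mRNA lower, Celf1 at -0.13 and Nova2 reversed at 0.030. With no filter, Celf1 was at -0.24 (adjusted p = 0.0536). The covariate left 585 genes higher and 1193 lower. Under it, 0 members rose and 1 fell, 0 paralogs rose, 1 other RNA-binding protein rose and 1 fell, 5 general splicing factors rose and 0 fell, and 0 target mRNAs rose and 2 fell by edgeR. Celf1 was then at -0.20, Celf2 at -0.39 and Nova1 at 0.29, none passing, and Elavl4 (-0.036) and Ptbp2 (-0.076) reversed. Without WT replicates 1 and 2, 0 members and 1 paralog rose by edgeR and 2 general splicing factors fell. Celf1 (-0.20) and Nova1 (0.32) then did not pass, and Elavl4 (-0.092) and Ptbp2 (-0.053) reversed.

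With single libraries left out, 280 to 2277 genes were higher and 776 to 2576 lower. Members higher numbered 0 to 1 and lower 1 to 3, and paralogs higher 0 to 2. Other RNA-binding proteins higher numbered 0 to 5 and lower 0 to 5, general splicing factors higher 0 to 13 and lower 0 to 1, and target mRNAs higher 0 to 2 and lower 0 to 6. The log2 fold change ranged from -0.28 to -0.20 for Celf1, -0.49 to -0.29 for Celf2, 0.27 to 0.47 for Nova1, -0.031 to 0.095 for Celf4, -0.31 to 0.11 for Nova2, -0.13 to 0.29 for Elavl4 and -0.068 to 0.084 for Ptbp2. Celf5 ranged from -0.47 to -0.09. The difference in the log2 ratio ranged from -0.078 to 0.0039 for Elavl4 to Elavl2, 0.05 to 0.22 for Celf1 to Celf2, 0.15 to 0.45 for Celf4 to Celf5, 0.16 to 0.79 for Nova1 to Nova2, -0.30 to -0.11 for Ptbp2 to Ptbp1, -0.94 to -0.71 for Rbfox1 to Rbfox2 and -0.73 to -0.47 for Rbfox1 to Rbfox3. The cause of these shifts was not tested.

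No paired analysis was possible because the labels pair no libraries across the groups, and the replicate numbers used here only name them. With 2 R6/1 libraries, a fit lacking either rests on the other alone. Depth did not leave any member below the filter.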

Other observations

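Families of RNA-processing genes were also taken whole from the descriptions in the deposited table, after the values above had been seen, and the genes named from them were chosen with their values known. They share genes with the lists above and are not separate from them. Rises counted in both include Hnrnpa2b1, Hnrnpc, Hnrnph1, Srsf4, Srsf6, Snrnp70, Snrpn and U2af2. Of 20 tested heterogeneous nuclear ribonucleoprotein genes, 7 rose in R6/1 and 0 fell, and the median log2 fold change was 0.23. The called share was 35.0%, against 22.6% of all tested genes (9.72% higher and 12.8% lower). Counts of these hnRNP genes are uncertain, as said above, because the handling of reads with several matches is not stated. Hnrnph2 rose from 110 ± 11.9 CPM in WT to 149 ± 0.687 CPM in R6/1 (edgeR adjusted p = 0.0184) and Hnrnpr from 119 ± 2.12 to 142 ± 1.10 CPM (adjusted p = 0.0329). Of 36 tested DEAD box RNA helicases, which remodel RNA and its protein complexes, 11 rose and 1 fell (median 0.15). Their called share was 33.3%. Ddx5, a splicing and transcription cofactor, rose from 744 ± 61.9 to 982 ± 32.4 CPM (adjusted p = 0.0154), and Ddx21, a nucleolar helicase, from 30.1 ± 3.26 to 50.6 ± 2.87 CPM (adjusted p = 0.00402). Ddx11, a DNA helicase despite its name, fell from 7.53 ± 0.0987 to 3.15 ± 0.403 CPM (adjusted p = 0.00333).

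Of 40 tested RNA binding motif genes, 7 rose, 3 fell and 30 did not pass (median 0.07), with Rbm11, a tissue-restricted splicing regulator, rising from 5.17 ± 0.820 to 11.1 ± 0.378 CPM (adjusted p = 0.00579). Over all tested genes 9.72% were called higher and 12.8% lower. Of 12 serine/arginine-rich splicing factors 4 rose and 0 fell. Of 21 genes described as small nuclear ribonucleoprotein, 4 rose and 0 fell, a called share of 19% against 22.6% of all tested genes. These 21 include the splicing factor genes U2af1 and U2af2 beside the Snrnp and Snrp genes, and U2af2 is among the 4 rises. The counts of rises fell when most single libraries were left out, as did the count over all genes. Without R6/1 replicate 1, 0 hnRNP genes, 1 DEAD box helicase and 0 RNA binding motif genes rose by edgeR, and without R6/1 replicate 2, 2, 1 and 2 did. Leaving out WT replicate 1 gave 2, 5 and 3, leaving out WT replicate 3 gave 1, 6 and 2, and leaving out WT replicate 2 gave 11, 12 and 10. When WT replicates 1 and 2 were dropped together, 7, 11 and 5 rose, and with the choroid plexus covariate 4, 6 and 1 rose.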
